A study of Mus musculus with 6 samples.

Results

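The genes described here are 3 families of nuclear RNA-binding proteins in mouse, taken by name: every gene of the deposited count table whose symbol begins with Rbm and a digit, with Srsf or with Hnrnp, leaving out symbols marked as pseudogenes. The rule found 70 of the 24028 genes in the table, of which 39 were Rbm genes, 11 were Srsf genes and 20 were Hnrnp genes. The rule uses names and no measured value, but it was set with earlier results of these data known.

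The RNA came from 1 clone of C2C12, a mouse myoblast line grown in culture, into which a transgene named MMH had been put under doxycycline control. MMH is a codon-altered fusion of the first section of mouse Dux, with its homeodomains, to the last section of human DUX4, and the study used it to look at what a mouse DUX4-family factor does in muscle precursor cells. The induced group was 3 cultures given 2 µg/ml doxycycline, and the uninduced group was 3 cultures of the same clone without it. For the length of treatment the series description states 18 h and the sample protocol 36 h, and the files do not settle which was used. All 6 cultures carried the transgene and were of a single clone selected in puromycin, so clonal differences do not enter the comparison and other clones were not sampled. Cells lacking the transgene but given doxycycline were not analysed here, so an effect of the drug and an effect of MMH cannot be told apart.

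Splicing removes introns through the spliceosome, a machine of small nuclear ribonucleoproteins that assembles on each intron. SR proteins, encoded by the Srsf genes, bind exonic enhancers and generally promote use of nearby splice sites. The hnRNP proteins coat nascent transcripts and often act in the opposite sense, repressing exons or shielding cryptic sites, besides their parts in export, stability and translation. The Rbm genes are named for an RNA-binding motif and cover spliceosome subunits, tissue-restricted splicing regulators, adaptors of RNA methylation, exosome cofactors and ribosome assembly factors. Many SR and hnRNP genes are known to hold down their own output through exons that send the transcript to decay. Counts per gene sum all transcripts of a gene and do not separate such forms.

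The libraries held between 21.5 M and 24.5 M counts. A row for endogenous Dux, to which reads of the codon-altered transgene may or may not have been assigned, averaged 13.7 ± 0.911 CPM (counts scaled to library size) in induced cells and 0.0423 ± 0.0497 CPM in uninduced cells (SD, n = 3 each). Of 9 myoblast markers 7 could be tested and all 7 fell, with summed levels of 874 to 906 CPM in induced libraries and 1694 to 1702 CPM in uninduced libraries. Pax7 and Myf6 had too few counts to test. The 8 markers of other cell types summed to 2.01 to 2.47 CPM in induced libraries and to 0.808 to 1.36 CPM in uninduced libraries, 4 of them had no count in any uninduced library, and Pecam1 was the 1 of them that rose. In bulk RNA, a change in the share of cells that express a gene and a change in its RNA per cell cannot be told apart. A replicate is a separate culture of the same clone, so the p-values measure the spread between cultures.

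Most of the transcriptome differed between the groups. CPM values were computed on library sizes scaled by the trimmed mean of M-values (TMM), whose factors were 0.712 to 0.719 in induced libraries and 1.39 to 1.40 in uninduced libraries. This scaling places the median log2 fold change (induced over uninduced) of all tested genes at -0.01. On library size alone that median was -0.97, so "rose" and "fell" here mean relative to the middle of all genes. In edgeR's quasi-likelihood test with Benjamini-Hochberg adjustment over the 12969 genes tested, 41.3% of genes rose, 41.2% fell and 82.5% did either at an adjusted p under 0.05. A gene that is called is therefore the ordinary case here, and the direction and the size are what set members apart from each other.

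Of the 70 members, 63 had enough counts to test, and each of the 63 passed the count filter in the induced libraries alone and in the uninduced libraries alone. Of these 63, 37 rose, 20 fell and 6 did not pass the test. The groups did not overlap for the same numbers of genes, 37 with every induced library above every uninduced library and 20 with every induced library below, against 41.5% and 41.7% of all tested genes, or 57 members in either direction against 83.1%. At least 2-fold rises were seen for 10 members and falls of that size for 3, against 18% and 12.7% of all tested genes. The members' median log2 fold change was 0.24, beside -0.01 over all tested genes, and it turned to -0.72 on library size alone.

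Most Rbm genes rose, most Srsf genes fell and Hnrnp genes split, though these directions depend in part on the scaling. Of 33 Rbm genes tested, 27 rose, 4 fell and 2 did not pass the test, and their median log2 fold change was 0.73, or -0.23 on library size alone. Of 10 Srsf genes tested, 2 rose, 6 fell and 2 did not pass, with a median of -0.38. The 20 Hnrnp genes, all tested, split into 8 that rose, 10 that fell and 2 that did not pass, with a median of -0.10. Over all tested genes, 41.3% rose and 41.2% fell. Placed against the median of all genes, which no choice of scaling factor alters, 28 Rbm genes lay above it and 5 below, 4 Srsf genes lay above and 6 below, and 9 Hnrnp genes lay above and 11 below. On library size alone, the 8 Rbm genes Rbm15, Rbm38, Rbm48, Rbm27, Rbm12b2, Rbm12b1, Rbm14 and Rbm12 were still called higher. No Srsf or Hnrnp gene was. With that scaling 1977 of the 12969 tested genes were called higher, and most were called lower. The 8 higher calls were a slightly smaller share of the 63 tested members than that of all tested genes. Of the 33 Rbm genes they were a larger share. The members as a whole thus did not stand out with that scaling. Of the 20 members that fell, 19 were called lower with TMM, RLE, upper-quartile and library-size scaling in edgeR and also with DESeq2. The exception was Hnrnpk. Library size alone moves genes down, to a median of -0.97 over all genes, so members that fell could only stay lower there. It tests the rises and not the falls, and does not show the falls to be firmer.

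**Figure D1:**
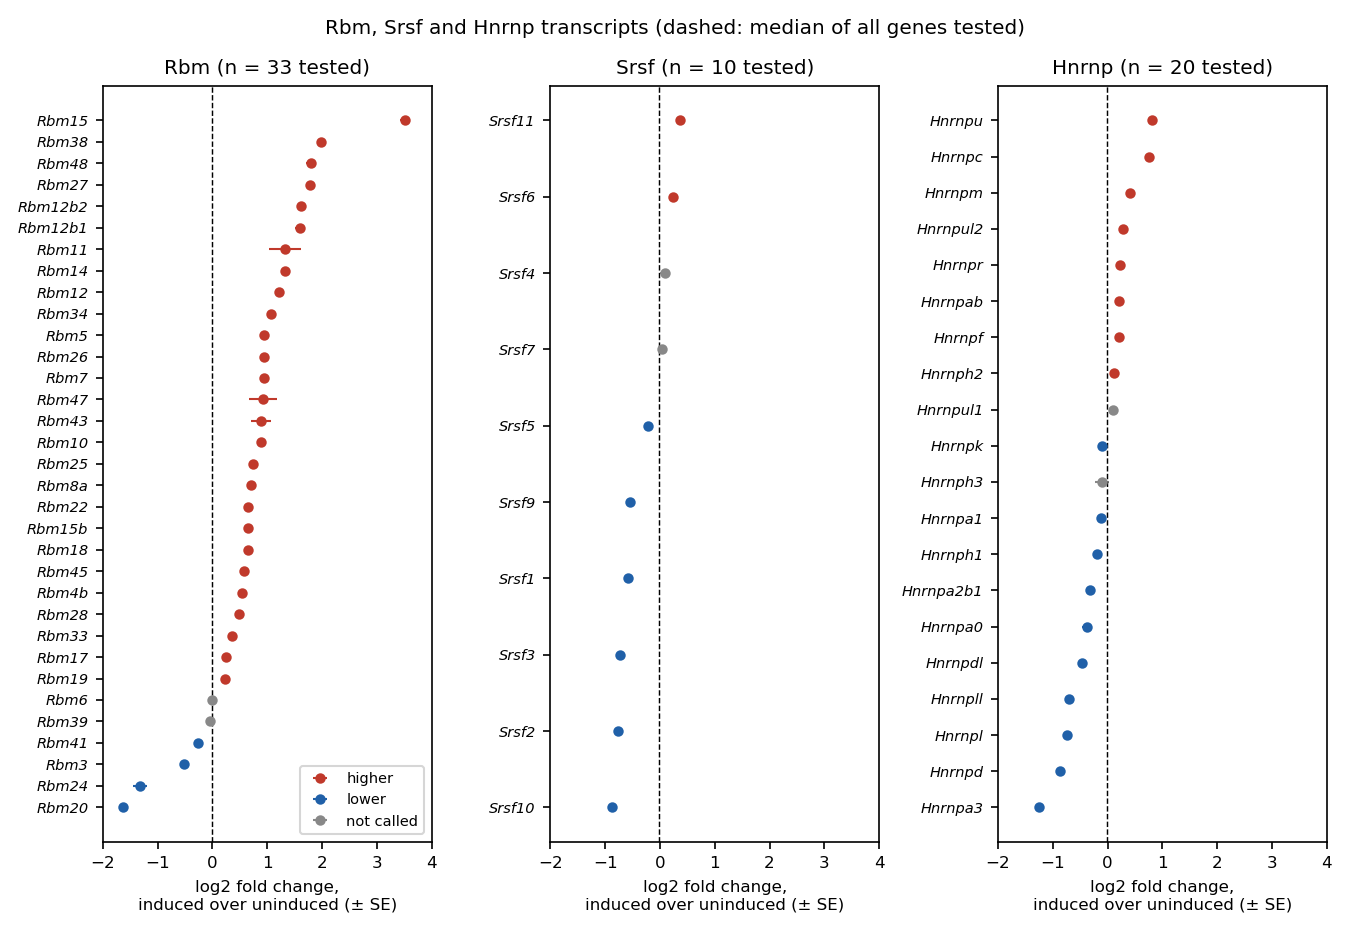
Log2 fold change, induced over uninduced, of each of the 63 tested members by family, on TMM-scaled counts with bars of 1 standard error (n = 3 libraries a group). Rbm genes reach from -1.63 for Rbm20 to 3.51 for Rbm15 and 27 of 33 lie past the threshold on the higher side, while Srsf genes stay between -0.87 and 0.37. On library size alone every point would sit lower by nearly the same amount, the median of all genes then lying at -0.97.

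Ratios of summed counts between the families within a library need no scaling between libraries. Rbm counts per Hnrnp count were 0.380, 0.383 and 0.375 in the induced libraries, against 0.256, 0.259 and 0.249 in the uninduced libraries. The induced ratio was 1.49-fold the uninduced one and the groups did not overlap. Srsf counts per Hnrnp count were 0.192, 0.193 and 0.189 in the induced libraries, against 0.232, 0.236 and 0.236 in the uninduced libraries, a ratio of 0.815. Rbm counts per Srsf count averaged 1.98 ± 0.00174 in induced cells and 1.08 ± 0.0256 in uninduced cells (SD, n = 3 each), a 1.83-fold difference, with nearly equal counts for the 2 families in uninduced cells. Each of these 3 ratios gave p = 0.1 in a two-sided exact permutation test, which is the smallest value that 3 libraries against 3 can reach, and 0.1 after Benjamini-Hochberg adjustment.

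**Figure D2:**
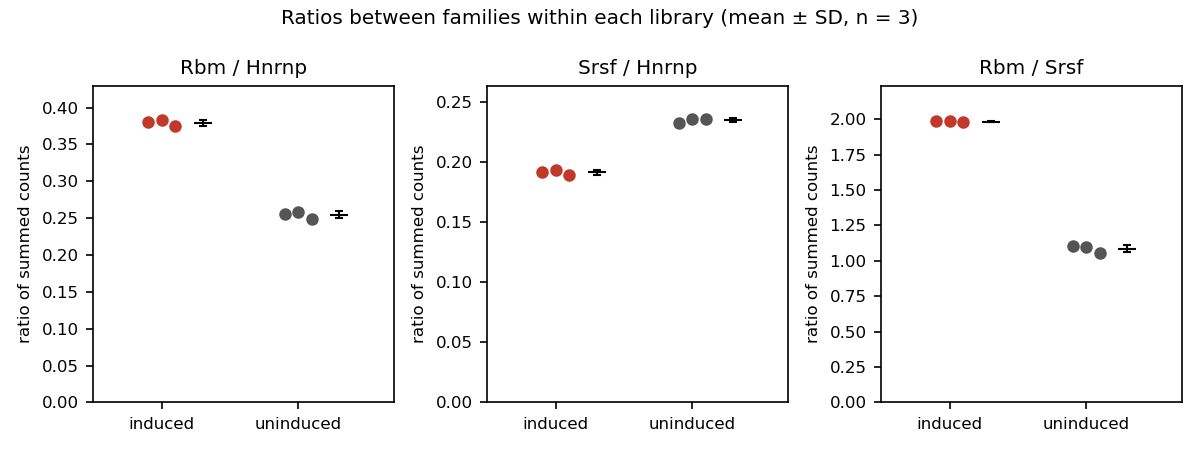
Ratio of the summed counts of 2 families within each library, with points for the 3 induced and the 3 uninduced libraries and bars for mean ± SD. The Rbm to Srsf ratio is 1.98 in induced cells and 1.08 in uninduced cells, and in all 3 panels the groups do not overlap.

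As a share of all counts, the members made up 0.755% ± 0.00178 in induced cells and 1.42% ± 0.0157 in uninduced cells (SD, n = 3 each). All 3 families took a smaller share of the induced libraries. So did the middle of all tested genes, whose median log2 fold change on library size alone was -0.97. Rbm genes held 0.182% ± 0.0015 of counts in induced cells and 0.243% ± 0.00147 in uninduced cells, while Srsf genes held 0.0919% ± 0.000677 in induced cells and 0.224% ± 0.00411 in uninduced cells. Hnrnp genes held 0.480% ± 0.00193 in induced cells and 0.955% ± 0.0133 in uninduced cells. On the TMM scale the same sums were 2546 CPM in induced cells and 1742 CPM in uninduced cells for Rbm, 1284 CPM in induced cells and 1606 CPM in uninduced cells for Srsf, and 6715 CPM in induced cells and 6843 CPM in uninduced cells for Hnrnp.

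Rbm15 changed more than any other tested member. It lies on chromosome 3 between 107305511 and 107334460 (GRCm38) and encodes an adaptor that brings the m6A methyltransferase complex to its RNA targets. Its level was 208, 183 and 191 CPM in the induced libraries, against 19.7, 16.2 and 15.1 CPM in the uninduced libraries. Every induced library was far above every uninduced one, with a log2 fold change of 3.51 ± 0.08 (SE; adjusted p = 3.9e-16), which is 11.4-fold and higher than 96.1% of all tested genes. Its share of all Rbm counts was 7.62% ± 0.484 in induced cells and 0.977% ± 0.132 in uninduced cells. The related gene Rbm15b, whose protein serves the same complex, averaged 73.0 ± 4.10 CPM in induced cells and 46.7 ± 3.26 CPM in uninduced cells, a log2 fold change of 0.65 ± 0.06 that became -0.32 on library size alone. The ratio of Rbm15 to Rbm15b counts, chosen after the values were seen, was 2.66 ± 0.025 in induced cells and 0.364 ± 0.0248 in uninduced cells, and per kilobase of exon Rbm15 stood at 26.1 CPM per kb in induced cells and 2.29 CPM per kb in uninduced cells, beside 11.2 CPM per kb in induced cells and 7.17 CPM per kb in uninduced cells for Rbm15b. The order of the pair was thus opposite in the groups.

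An annotated start region of Rbm15 holds a 10-base palindrome, TCTCG followed directly by CGAGA, which few start regions hold. In RefSeq windows that run from 250 bases before to 50 bases after each annotated start (GRCm38.p6), this motif, read on both strands, was in 4 of the 54 tested members that had a window, or 7.41%, beside 1.17% of the 10316 tested genes with a window. The motif was chosen with the genes' results known, and a match is a stretch of letters, not a shown site of binding. The 4 members are shown here with the palindrome in capitals and 10 bases on either side, 5′ to 3′ on the strand of the gene, because their genes moved in different directions.
Rbm15 (chr3:107333467-107333496, minus strand): gctctttgtcTCTCGCGAGAtcggagagag
Rbm26 (chr14:105177302-105177331, minus strand): tcgcactcatTCTCGCGAGAtttaccggca
Rbm39 (chr2:156180223-156180252, minus strand): cggggcagttTCTCGCGAGAgcccgtgctt
Srsf10 (chr4:135856076-135856105, plus strand): gggagccaagTCTCGCGAGAagaggcagtt
Counted from the annotated start of the window that holds it, the palindrome began 197 bases before in Rbm15, 7 before in Rbm26, 4 before in Rbm39 and 16 after in Srsf10. These need not be the outermost starts. The RefSeq spans of Rbm15, Rbm26 and Srsf10 reach further upstream, to 107334460, 105181039 and 135855752. Of these genes Rbm15 and Rbm26 rose, Rbm39 did not pass the test and Srsf10 fell.

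Rbm38 and Rbm24 encode closely related proteins that regulate splicing and mRNA stability in muscle, and they moved in opposite directions. Rbm38, which is also a target of p53, stood at 46.5, 39.3 and 45.6 CPM in the induced libraries and 10.9, 10.9 and 11.4 CPM in the uninduced libraries. Rbm24 stood at 6.61, 7.25 and 10.1 CPM in the induced libraries and 21.1, 17.7 and 21.4 CPM in the uninduced libraries. All induced libraries were above the uninduced ones for Rbm38 and below them for Rbm24, with log2 fold changes of 1.99 ± 0.07 (adjusted p = 8.7e-18) and -1.32 ± 0.12 (adjusted p = 1.6e-08). The count ratio of Rbm38 to Rbm24, chosen after the values were seen, was 5.66 ± 1.28 in induced cells and 0.556 ± 0.0521 in uninduced cells.

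Rbm20, which controls the splicing of titin and other sarcomere genes, had the steepest fall of the tested members. It measured 18.7, 22.9 and 21.01 CPM in the induced libraries, against 66.9, 64.4 and 62.6 CPM in the uninduced libraries. The groups were far apart, with a log2 fold change of -1.63 ± 0.06 (adjusted p = 3.9e-17), or 3.10-fold lower in induced cells, and its place was lower than all but 4.05% of tested genes. Myoblast markers also fell in these libraries: Myod1, a myogenic transcription factor gene, averaged 37.1 CPM in induced cells and 178 CPM in uninduced cells, and Cdh15, the gene of a cadherin of myoblasts, averaged 45.6 CPM in induced cells and 221 CPM in uninduced cells. Their part in the change of Rbm20 and Rbm24 was not tested.

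**Figure D3:**
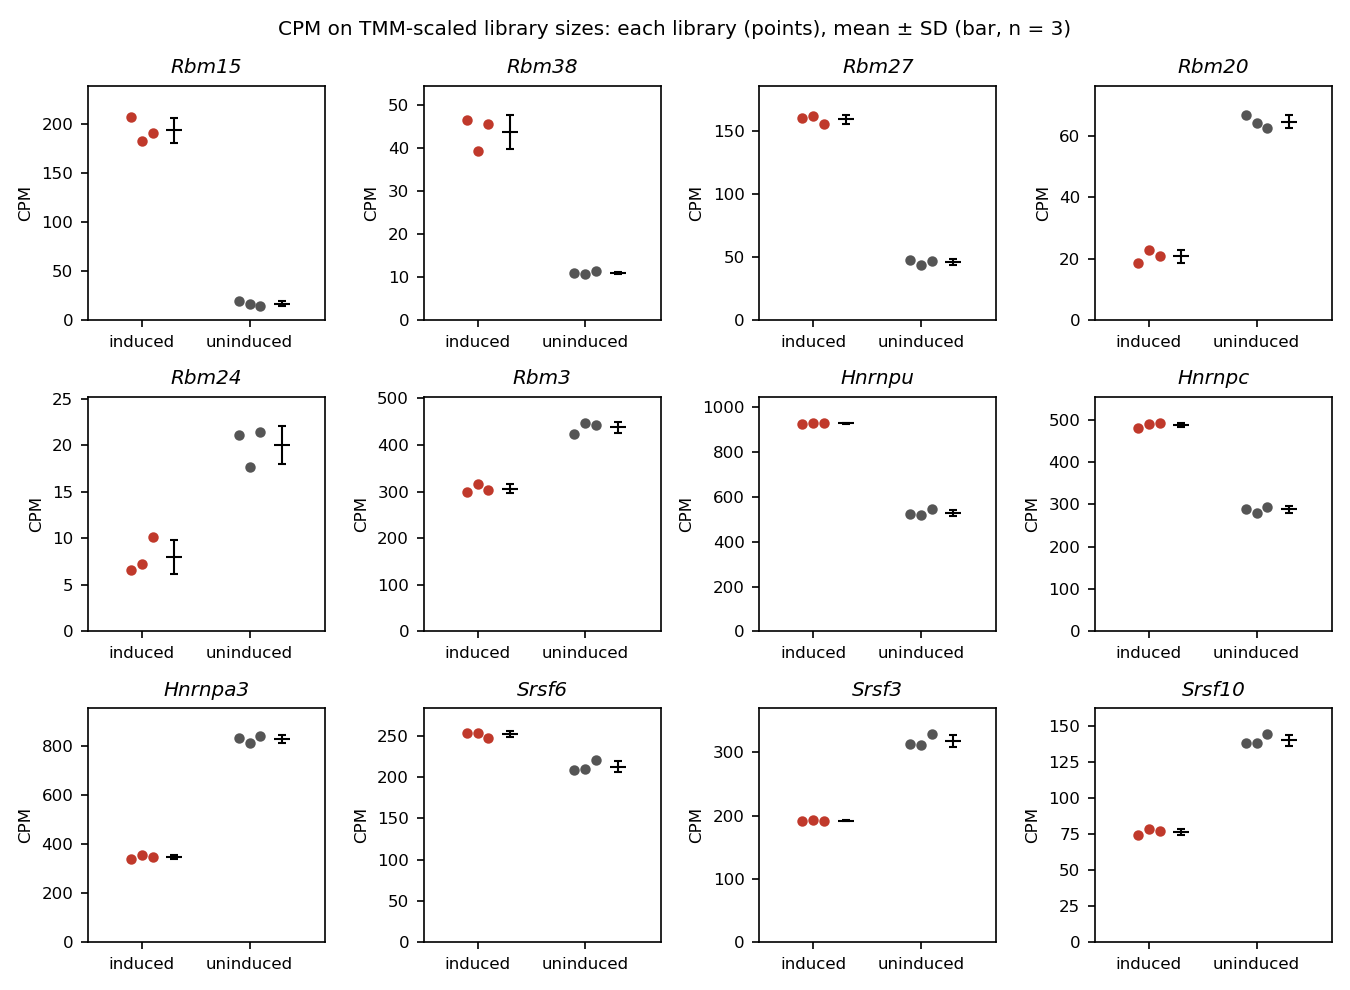
TMM-scaled CPM in each library for members described in the text, induced libraries on the left of each panel and uninduced libraries on the right, with bars for mean ± SD (n = 3) and each axis starting at 0. Rbm15 lies at 183 to 208 CPM in induced libraries and at 15.1 to 19.7 CPM in uninduced libraries, and Rbm20 at 18.7 to 22.9 CPM in induced and 62.6 to 66.9 CPM in uninduced libraries. On library size alone Hnrnpu, Hnrnpc and Srsf6 would lie lower in induced cells.

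Of the Rbm genes whose proteins serve the nuclear exosome, Rbm27, Rbm26 and Rbm7 rose, a grouping made after the values were seen. Rbm27, a partner of the nuclear exosome in clearing polyadenylated RNA, measured 160, 162 and 155 CPM in the induced libraries and 47.8, 43.8 and 47.2 CPM in the uninduced libraries. Its groups did not overlap, with a log2 fold change of 1.78 ± 0.05 (adjusted p = 1.1e-20). Rbm26, its close relative, averaged 61.4 CPM in induced cells and 31.9 CPM in uninduced cells, a log2 fold change of 0.94 ± 0.06. Rbm7, a subunit of the nuclear exosome targeting complex, averaged 71.1 CPM in induced cells and 37.0 CPM in uninduced cells, likewise a log2 fold change of 0.94 ± 0.06. The rises of Rbm26 and Rbm7 turned to -0.021 and -0.023 on library size alone.

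Among Rbm genes whose proteins work in or beside the spliceosome, Rbm48, Rbm25, Rbm22, Rbm8a and Rbm17 rose and Rbm39 did not pass the test. This grouping was made after the values were seen and is not a full set. It leaves out Rbm5 and Rbm10, which rose, and Rbm41, which fell, all described below. Rbm48, whose human protein works in the minor spliceosome, measured 19.4, 22.5 and 19.9 CPM in the induced libraries and 6.23, 5.82 and 5.64 CPM in the uninduced libraries, which did not overlap. Its log2 fold change was 1.80 ± 0.09 (adjusted p = 6.6e-15). Rbm25, a partner of the U1 particle, averaged 193 CPM in induced cells and 116 CPM in uninduced cells, with a log2 fold change of 0.73 ± 0.04. Rbm22, which sits at the catalytic centre of the spliceosome, and Rbm8a, a core subunit of the exon junction complex, had log2 fold changes of 0.65 ± 0.05 and 0.71 ± 0.04. Rbm17, which recognises 3′ splice sites, rose by 0.24 ± 0.05, a call lost with upper-quartile scaling. Rbm39, a relative of the U2 auxiliary factor, had the second highest mean CPM of the Rbm genes over all libraries and measured 166, 171 and 175 CPM in the induced libraries, against 176, 180 and 175 CPM in the uninduced libraries. Its groups overlapped and its log2 fold change of -0.05 ± 0.04 did not pass the test (adjusted p = 0.234), although it was called lower with upper-quartile scaling at -0.20 and without a count filter at -0.12 (adjusted p = 0.0083).

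The Rbm genes that share an evolutionary origin or a chromosomal neighbourhood did not always move together. Rbm5, Rbm6 and Rbm10 encode related splicing regulators of which Rbm5 and Rbm6 lie side by side on chromosome 9. Rbm5 averaged 140 CPM in induced cells and 72.6 CPM in uninduced cells, with a log2 fold change of 0.95 ± 0.04. Rbm10 had a log2 fold change of 0.88 ± 0.05. Rbm6 averaged 49.8 ± 4.05 CPM in induced cells and 49.9 ± 2.02 CPM in uninduced cells (SD, n = 3 each), and its log2 fold change of -0.01 ± 0.06 did not pass the test (adjusted p = 0.909), although with upper-quartile scaling it was called lower at -0.15. The neighbours Rbm12b1 and Rbm12b2 on chromosome 4 rose by nearly the same amount, 1.59 ± 0.08 and 1.62 ± 0.06 on the log2 scale. As near copies of each other they may share reads, since the treatment of reads with several places is not given in the sources used here. Rbm14, a transcriptional coactivator and paraspeckle protein, averaged 142 CPM in induced cells and 56.8 CPM in uninduced cells, with a log2 fold change of 1.33 ± 0.05.

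Rbm3, the cold-inducible RNA-binding protein gene, took the most counts of any Rbm gene and was one of the 4 that fell. It measured 298, 317 and 304 CPM in the induced libraries, against 425, 446 and 443 CPM in the uninduced libraries. The groups did not overlap and its log2 fold change was -0.52 ± 0.04 (adjusted p = 2.6e-11). Rbm3 made up 12.04% ± 0.382 of Rbm counts in induced cells and 25.1% ± 0.747 in uninduced cells. Rbm41 was the remaining Rbm gene that fell, at 14.9, 14.6 and 16.2 CPM in the induced libraries and 19.2, 18.2 and 17.3 CPM in the uninduced libraries, a log2 fold change of -0.26 ± 0.08 (adjusted p = 0.0042).

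Ribosome assembly is represented by Rbm19 and Rbm28, which encode nucleolar proteins. Rbm28 averaged 72.6 CPM in induced cells and 51.7 CPM in uninduced cells, a log2 fold change of 0.49 ± 0.05, and Rbm19 had a log2 fold change of 0.23 ± 0.07, a call lost with upper-quartile scaling. The further Rbm genes that rose were Rbm12 at 1.22, Rbm34 at 1.07, Rbm43 at 0.89, Rbm18 at 0.64, Rbm45 at 0.57, Rbm4b at 0.55 and Rbm33 at 0.36 on the log2 scale. Of these 7, Rbm18, Rbm45, Rbm4b, Rbm33 and Rbm43 turned negative on library size alone, as did Rbm19 and Rbm28.

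Rbm11 and Rbm47, tissue-restricted genes outside muscle, were at low levels in both groups. Rbm11, a splicing regulator of brain and testis, measured 1.54, 1.04 and 1.55 CPM in the induced libraries and 0.569, 0.421 and 0.656 CPM in the uninduced libraries. Rbm47, a cofactor of C-to-U RNA editing, measured 1.31, 2.07 and 1.84 CPM in the induced libraries and 0.808, 0.873 and 1.05 CPM in the uninduced libraries. Neither gene's groups overlapped, and the log2 fold changes were 1.33 ± 0.30 (adjusted p = 2.5e-04) and 0.93 ± 0.25 (adjusted p = 0.0019), with the widest standard errors of the tested members. The germ cell genes Rbm46 and Rbm44 had no count and 1 count in all 6 libraries, where 3 counts in a library correspond to 0.171 to 0.194 CPM in induced and 0.0898 to 0.0983 CPM in uninduced libraries. Rbm31y and Rbm4 had no count either. Rbm42 had 5, 2 and 1 counts in the induced libraries and 2, 2 and 2 in the uninduced libraries, and Rbm3os, a noncoding RNA antisense to Rbm3, had 3, 2 and 5 counts in induced and 13, 9 and 10 in uninduced libraries.

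The near absence of Rbm4 and Rbm42 coincides with overlapping gene models. In GENCODE M21, 60.5% of the exonic bases of Rbm4 and 75.4% of those of Rbm42 lie under another gene on the same strand, Gm21992 and Gm21982, and no other member reaches 50%. Gm21992 has 147, 132 and 139 counts in the induced libraries and 142, 127 and 120 in the uninduced libraries, and Gm21982 has no row in the table. Whether counting set both members near 0 was not tested, so their values do not show that the genes are silent. Smaller overlaps on the same strand lie in Rbm12 (32.6%, Gm28036) and Rbm14 (18.6%, Gm21992), both of which rose. On the opposite strand, Gm12992 covers 43% of the exonic bases of Srsf4. The effect of these overlaps on the counts was not tested.

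The Srsf family was quieter and leaned the other way, with no member at a 2-fold change in either direction. The 2 Srsf genes that rose were Srsf11 and Srsf6. Srsf11, a divergent SR protein, measured 143, 149 and 143 CPM in the induced libraries and 111, 112 and 113 CPM in the uninduced libraries. Srsf6 measured 254, 254 and 247 CPM in the induced libraries and 208, 210 and 220 CPM in the uninduced libraries. Neither overlapped between groups, with log2 fold changes of 0.37 ± 0.04 (adjusted p = 1.3e-08) and 0.24 ± 0.04 (adjusted p = 7.2e-06), which were -0.59 and -0.72 on library size alone. Srsf6 took 19.6% of Srsf counts in induced cells and 13.2% in uninduced cells.

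The Srsf genes that fell include the founding members of the family. Srsf10, whose protein turns from activator to repressor when it loses its phosphates, measured 74.1, 78.2 and 77.1 CPM in the induced libraries and 138, 138 and 144 CPM in the uninduced libraries. Its groups were well apart, and its log2 fold change of -0.87 ± 0.04 (adjusted p = 6.0e-15) was the lowest of the family, 1.83-fold lower in induced cells. Srsf2, also known as SC35, measured 111, 103 and 106 CPM in the induced libraries and 180, 187 and 178 CPM in the uninduced libraries. Srsf3, the smallest SR protein and a factor in mRNA export, measured 192, 193 and 192 CPM in the induced libraries and 314, 311 and 330 CPM in the uninduced libraries. Srsf1, the first SR protein to be described, measured 187, 188 and 190 CPM in the induced libraries and 277, 280 and 295 CPM in the uninduced libraries. In all 3 genes every induced library lay below every uninduced one, with log2 fold changes of -0.76 ± 0.04, -0.73 ± 0.04 and -0.59 ± 0.04 in the order given. Srsf6 took the largest share of Srsf counts in induced cells, whereas Srsf3 did so in uninduced cells, with 15.0% in induced and 19.8% in uninduced cells. Per kilobase of exon, Srsf2 stood at 36.1 CPM per kb in induced cells and 61.3 CPM per kb in uninduced cells. Srsf6 stood at 52.3 CPM per kb in induced cells and 44.2 CPM per kb in uninduced cells. Their order differed between the groups only on that scale, which rests on the annotated exon lengths. In CPM, Srsf6 was above Srsf2 in both groups, at 252 against 107 CPM in induced cells and 213 against 181 CPM in uninduced cells.

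Srsf9 and Srsf5 fell less, by 0.54 ± 0.06 and 0.22 ± 0.04 on the log2 scale. Srsf7 averaged 140 ± 1.21 CPM in induced cells and 136 ± 5.08 CPM in uninduced cells (SD, n = 3 each), and Srsf4 averaged 17.8 ± 0.916 CPM in induced cells and 16.8 ± 1.26 CPM in uninduced cells. Neither passed the test (adjusted p = 0.356 and 0.334). Srsf12, a tissue-restricted SR gene, had 1 count in an induced library and 1 in an uninduced library.

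The Hnrnp family took most of the members' counts, 6715 of 10550 CPM in induced cells and 6843 of 10190 CPM in uninduced cells, and its near level total held opposed changes of single genes. Hnrnpu, which encodes the nuclear scaffold protein SAF-A, measured 926, 930 and 930 CPM in the induced libraries, against 522, 520 and 545 CPM in the uninduced libraries. Hnrnpa3, a close relative of Hnrnpa1, measured 341, 355 and 348 CPM in the induced libraries, against 831, 810 and 839 CPM in the uninduced libraries. The groups were far apart in both genes and lay in opposite order, with log2 fold changes of 0.81 ± 0.04 (adjusted p = 1.4e-15) for Hnrnpu and -1.25 ± 0.04 (adjusted p = 3.9e-19) for Hnrnpa3. Hnrnpu made up 13.8% ± 0.129 of Hnrnp counts in induced cells and 7.73% ± 0.0854 in uninduced cells, and Hnrnpa3 made up 5.18% ± 0.135 in induced cells and 12.1% ± 0.0764 in uninduced cells. The count ratio of Hnrnpu to Hnrnpa3, chosen after the values were seen, was 2.67 ± 0.0491 in induced cells and 0.640 ± 0.0102 in uninduced cells. This 4.17-fold difference needs no scaling between libraries, whereas the rise of Hnrnpu alone became -0.15 on library size alone.

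**Figure D4:**
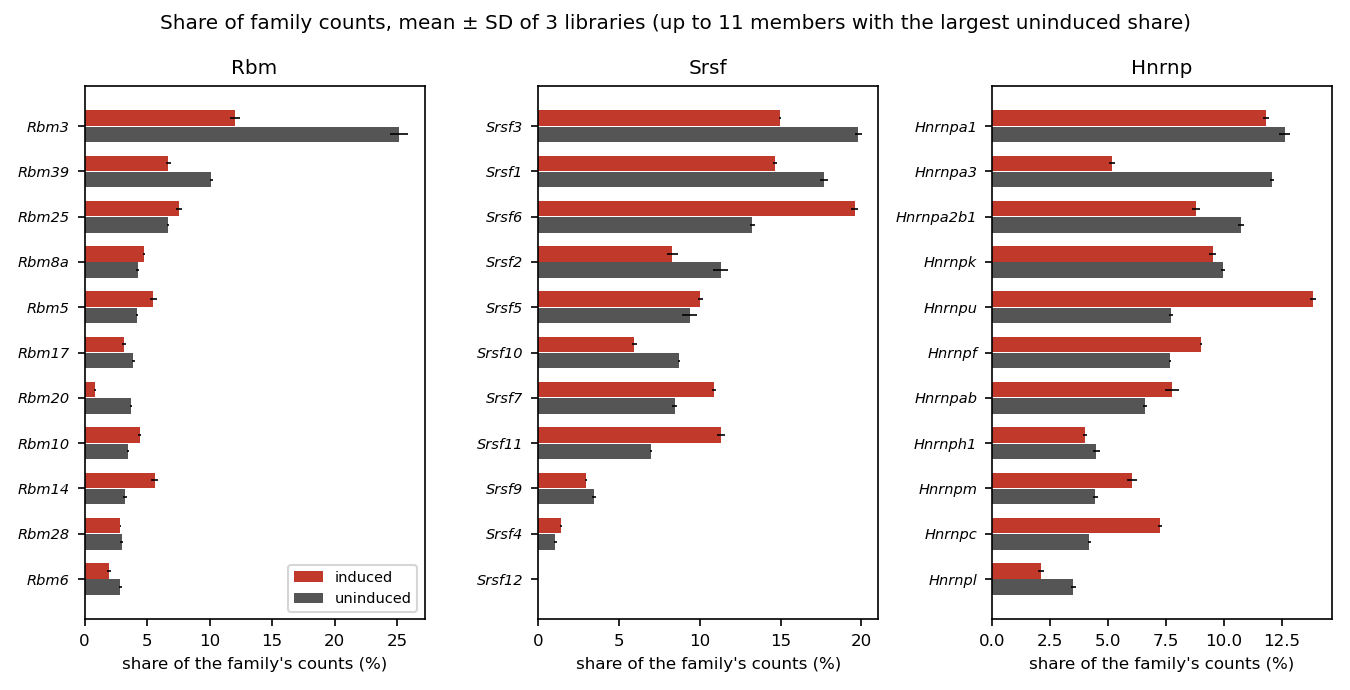
Share of each family's counts taken by its members in induced and uninduced libraries (mean ± SD, n = 3 each), a measure that does not depend on scaling between libraries. Up to 11 members with the largest uninduced share are drawn for each family. Hnrnpu takes 13.8% of Hnrnp counts in induced and 7.73% in uninduced cells, Rbm3 takes 12.04% of Rbm counts in induced and 25.1% in uninduced cells, and Srsf6 takes 19.6% of Srsf counts in induced and 13.2% in uninduced cells.

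Hnrnpc, whose protein binds uridine tracts and shields cryptic exons, was next to Hnrnpu among the rises. It measured 481, 489 and 491 CPM in the induced libraries and 290, 279 and 294 CPM in the uninduced libraries, without overlap, and its log2 fold change was 0.76 ± 0.04 (adjusted p = 7.9e-15). Hnrnpm measured 422, 395 and 397 CPM in the induced libraries and 313, 299 and 304 CPM in the uninduced libraries, a log2 fold change of 0.41 ± 0.04. Hnrnpul2, a relative of Hnrnpu, measured 216, 209 and 213 CPM in the induced libraries and 179, 172 and 171 CPM in the uninduced libraries, a log2 fold change of 0.29 ± 0.04. Hnrnpr, Hnrnpab, Hnrnpf and Hnrnph2 rose by 0.22, 0.21, 0.20 and 0.12 on the log2 scale. All 8 of the family's rises turned negative on library size alone, Hnrnpc least after Hnrnpu at -0.21, and Hnrnph2 was also -0.027 with upper-quartile scaling, with which Hnrnpr, Hnrnpab and Hnrnpf did not pass the test.

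Among the Hnrnp genes that fell, Hnrnpd, Hnrnpl and Hnrnpll followed Hnrnpa3. Hnrnpd, known as AUF1 for its part in the decay of AU-rich mRNAs, measured 77.7, 86.1 and 84.4 CPM in the induced libraries and 147, 150 and 158 CPM in the uninduced libraries. Hnrnpl and Hnrnpll encode related proteins that bind CA-rich RNA, of which Hnrnpll is known for switching CD45 exons in lymphocytes. Hnrnpl measured 144, 132 and 152 CPM in the induced libraries and 231, 240 and 248 CPM in the uninduced libraries, and Hnrnpll measured 46.6, 47.3 and 47.9 CPM in the induced libraries and 76.4, 78.3 and 75.2 CPM in the uninduced libraries. None of these genes overlapped between groups, with log2 fold changes of -0.88 ± 0.05, -0.74 ± 0.05 and -0.70 ± 0.05 in the order given. The ratio of Hnrnpll to Hnrnpl counts, chosen after the values were seen, was 0.332 ± 0.0227 in induced cells and 0.320 ± 0.0147 in uninduced cells, a difference within the spread between libraries.

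The remaining Hnrnp genes that fell had log2 fold changes between -0.46 for Hnrnpdl and -0.09 for Hnrnpk. Hnrnpa1, which took the most counts of any member in uninduced cells, measured 787, 783 and 811 CPM in the induced libraries and 850, 842 and 898 CPM in the uninduced libraries, a log2 fold change of -0.12 ± 0.04 (adjusted p = 0.0076). Its relative Hnrnpa2b1 fell by 0.32 ± 0.04 on the log2 scale. Hnrnpa0 fell by 0.38 ± 0.09, with induced libraries spread over 142, 105 and 133 CPM and uninduced libraries at 165, 163 and 167 CPM. Hnrnpdl and Hnrnph1 fell by 0.46 and 0.20, and Hnrnpk, a KH-domain protein gene, fell by 0.09 ± 0.04 (adjusted p = 0.0285). The call on Hnrnpk was lost without induced library 1 or 3 or uninduced library 2 or 3, with adjusted p of 0.0963, 0.0905, 0.0546 and 0.0587, and also with RLE scaling (0.0741) and with a filter of at least 1 CPM in 3 libraries (0.0508). The call on Hnrnph2 was lost without uninduced library 2 (adjusted p = 0.103), without a count filter (0.403) and with DESeq2 (0.0626). Hnrnph3 and Hnrnpul1 did not pass the test (adjusted p = 0.481 and 0.078), but Hnrnpul1 was called higher without induced library 2 (0.0234) or uninduced library 1 (0.0044) and with RLE scaling (0.0362). Per kilobase of exon, Hnrnpa1 led the family with 252 CPM per kb in induced cells and 274 CPM per kb in uninduced cells. This scale sets genes side by side only roughly, since the length merges all annotated exons of a gene, whether used in these cells or not. Hnrnpa3 stood at 64.5 CPM per kb in induced cells and 153 CPM per kb in uninduced cells, and Hnrnpc at 113 CPM per kb in induced cells and 66.6 CPM per kb in uninduced cells, so their order was reversed between the groups.

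Motif shares differed between the families, with few genes behind each share. The letters CCAAT, read on both strands, were in 27 of 54 tested members with a window, or 50%, and in 13 of 18 tested Hnrnp genes with a window, or 72.2%, in 10 of 26 Rbm genes (38.5%) and in 4 of 10 Srsf genes (40%), beside 43.8% of all tested genes with a window. By direction, 12 of 17 members that fell held it (70.6%) and 12 of 31 that rose (38.7%), but family and direction go together here and the motif was chosen with results known, so no test was made. GGGCGG was in 64.8% of tested members, with 46.2% of Rbm, 90% of Srsf and 77.8% of Hnrnp genes, beside 68% of all tested genes. CACGTG was in 14.8% of members, with 11.5% of Rbm, 0% of Srsf and 27.8% of Hnrnp genes, beside 11.5% of all tested genes. TATAAA was in 13% of members, with 11.5% of Rbm, 20% of Srsf and 11.1% of Hnrnp genes, beside 9.17% of all tested genes. The 250 bases before an annotated start are shown for Hnrnpc, which rose, Hnrnpa3, which fell, and Rbm15. Start regions of genes that moved in opposite directions can so be read side by side. These are not the outermost starts, as the RefSeq spans reach further upstream, to 52104039 in Hnrnpc, 75659105 in Hnrnpa3 and 107334460 in Rbm15. Part or all of each stretch thus lies inside the gene's span. Capitals mark CCAAT or its complement ATTGG, the 10-base palindrome and CACGTG.
Hnrnpc (chr14:52104022-52104271, minus strand): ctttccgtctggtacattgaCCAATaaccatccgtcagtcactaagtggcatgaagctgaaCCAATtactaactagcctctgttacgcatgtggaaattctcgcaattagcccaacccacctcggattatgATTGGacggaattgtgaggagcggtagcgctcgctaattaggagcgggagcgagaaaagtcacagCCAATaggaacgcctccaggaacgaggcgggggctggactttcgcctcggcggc
Hnrnpa3 (chr2:75659009-75659258, plus strand): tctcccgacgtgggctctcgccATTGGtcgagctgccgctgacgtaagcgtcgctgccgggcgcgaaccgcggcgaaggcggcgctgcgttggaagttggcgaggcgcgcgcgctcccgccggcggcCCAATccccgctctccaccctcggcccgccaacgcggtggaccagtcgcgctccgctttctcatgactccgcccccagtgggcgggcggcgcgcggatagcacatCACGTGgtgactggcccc
Rbm15 (chr3:107333290-107333539, minus strand): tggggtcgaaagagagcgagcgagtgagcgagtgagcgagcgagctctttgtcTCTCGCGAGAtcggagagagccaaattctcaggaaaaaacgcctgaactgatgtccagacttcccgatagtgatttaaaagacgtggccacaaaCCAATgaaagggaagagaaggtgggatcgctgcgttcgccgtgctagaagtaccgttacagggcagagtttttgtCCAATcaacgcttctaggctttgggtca
CCAAT or its complement stands in both Hnrnpc and Hnrnpa3, so its presence alone does not separate a gene that rose from one that fell. A pair of Dux-type motifs, TGATT and AATCA with 1 base between them and TAAT and AATCA with 2 bases between them, were in none of the 54 members' windows, beside 0.0194% and 0.126% of tested genes, which says only that these letters are absent from these windows.

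The change of a member was only loosely tied to its level. Across the 63 tested members, Spearman's rho between log2 fold change and mean CPM was -0.364, a description across genes that share the same 6 libraries, beside 0.0509 over all tested genes. Within families it was -0.0715 over 33 Rbm genes, 0.266 over 20 Hnrnp genes and -0.224 over 10 Srsf genes, so the pooled value mostly sets Rbm genes, which had fewer counts, against Hnrnp genes.

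The rest of the splicing machinery was compared through 3 lists, to be read beside the 41.3% of all tested genes that rose and the 41.2% that fell. Of 63 core spliceosome genes, all tested, 39 rose (61.9%), 16 fell (25.4%) and 8 did not pass, with a median log2 fold change of 0.27. Among them Cwc22, which ties the spliceosome to the exon junction complex, measured 203, 210 and 200 CPM in the induced libraries and 37.1, 35.9 and 36.8 CPM in the uninduced libraries, a log2 fold change of 2.48 ± 0.05. Slu7, a second-step factor, and the helicase gene Dhx8 had log2 fold changes of 2.19 ± 0.05 and 1.83 ± 0.05, while the helicase gene Ddx46, Isy1 and Ppih had -1.20 ± 0.05, -1.03 ± 0.07 and -0.98 ± 0.07.

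Of 23 genes of SR kinases and SR-related proteins, 16 rose (69.6%), 2 fell (8.7%) and 5 did not pass, with a median of 0.50. The nuclear kinase genes Clk2, Clk3 and Clk1 had log2 fold changes of 1.78 ± 0.05, 1.43 ± 0.05 and 1.30 ± 0.07, with Clk2 at 88.1 CPM in induced cells and 25.7 CPM in uninduced cells. The kinase gene Srpk2, whose protein works largely in the cytoplasm, averaged 19.7 CPM in induced cells and 38.0 CPM in uninduced cells, a log2 fold change of -0.94 ± 0.07. Its relatives Srpk1 and Srpk3 did not pass the test, with log2 fold changes of -0.11 ± 0.06 (adjusted p = 0.074) and -0.23 ± 0.23 (adjusted p = 0.34).

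Of 38 other splicing regulators tested out of 42, 21 rose (55.3%), 15 fell (39.5%) and 2 did not pass, with a median of 0.21. The share that fell is near the 41.2% of all tested genes. Rbmx, the X-linked gene also called hnRNP G, averaged 187 CPM in induced cells and 57.2 CPM in uninduced cells, a log2 fold change of 1.71 ± 0.05. Sfpq, a paraspeckle protein gene, averaged 764 CPM in induced cells and 296 CPM in uninduced cells, a log2 fold change of 1.37 ± 0.04, and Nova2 rose at a trace level of 1.47 CPM in induced cells and 0.540 CPM in uninduced cells. Mbnl1, the muscleblind regulator of muscle splicing, averaged 62.3 ± 2.96 CPM in induced cells and 252 ± 3.10 CPM in uninduced cells, a log2 fold change of -2.01 ± 0.05, and Rbms3 and Rbfox2 had -1.47 ± 0.09 and -1.44 ± 0.04. Other regulators known to act on muscle exons did not all follow Mbnl1 and Rbfox2: Mbnl2 averaged 291 CPM in induced cells and 181 CPM in uninduced cells, a log2 fold change of 0.68 ± 0.04, Ptbp1 had 0.41 ± 0.04, and Rbfox1 did not pass the test (-0.46 ± 0.36, adjusted p = 0.24). In the same list Celf2, Mbnl3, Qk and Celf1 fell, with log2 fold changes of -0.69 ± 0.05, -0.62 ± 0.09, -0.24 ± 0.04 and -0.14 ± 0.04. The genes of this comparison were chosen after the values were seen. On library size alone, 8 genes were called higher and 50 lower in the core list. The counts were 3 higher and 17 lower among SR kinases and SR-related genes and 4 higher and 32 lower among the other regulators. Most of all tested genes were also called lower with that scaling.

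**Figure D5:**
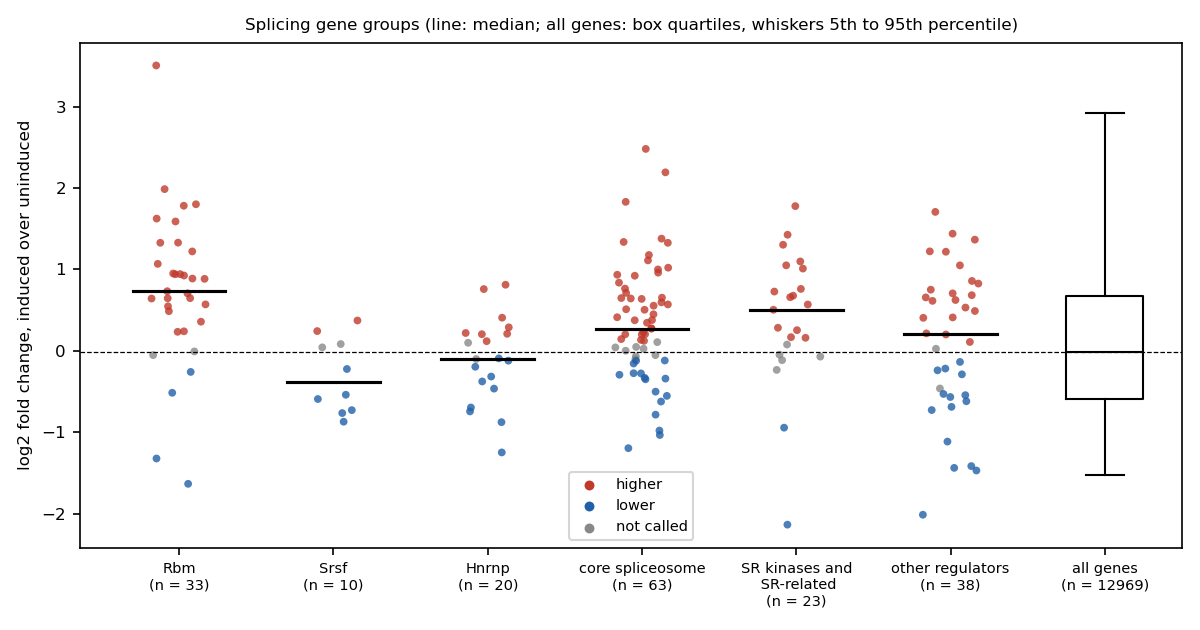
Log2 fold change, induced over uninduced, of each tested gene of the 3 families and the 3 lists of other splicing genes, coloured by call and with a line at each median, beside a box for all 12969 tested genes. The median is 0.73 for Rbm, -0.38 for Srsf and -0.10 for Hnrnp genes, beside -0.01 for all genes, and on library size alone every point would sit lower by nearly the same amount, which turns the Rbm median to -0.23 and that of all genes to -0.97.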

How the data were processed

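Polyadenylated RNA of 6 cultures was made into libraries with a TruSeq kit, per the labels' protocols. Reads were converted with CASAVA and aligned with TopHat2 2.0.12 and Bowtie2 2.2.3 to mm10, per the submitters' processing notes. The authors deposited raw read counts per gene for 24028 Entrez genes. How reads were counted (tool, strand, annotation, reads with several places) is not given in the sources used here, so overlapping genes and near copies can share reads.

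Groups came from the treatment label. The deposited counts were tested in R 4.3.3 with edgeR 4.0.16: filterByExpr at its defaults (minimum count 10) left 12969 genes, followed by TMM factors, glmQLFit with robust estimation, and a two-sided glmQLFTest. P-values were adjusted by Benjamini-Hochberg over the 12969 genes, with a threshold of 0.05. Fold changes are induced over uninduced, and a standard error is the log2 fold change over the root of the F statistic. The biological coefficient of variation was 4.27%. The scripts were tested on simulated data. Members and lists were chosen with earlier results of these data known. Full values were given for up to 4 rises and 4 falls of each family (mean of at least 1 CPM), the 2 genes of each family with the highest mean CPM, and 9 tissue-restricted genes. For each list of other splicing genes up to 3 rises and 3 falls were named. Exon lengths came from GENCODE M21, with all annotated exons of a gene merged. Coordinates and start windows came from RefSeq GRCm38.p6, the same assembly as mm10. All 70 members matched both, and 60 had a start window. Alternatives were DESeq2 1.42.0, limma-voom (limma 3.58.1), other scalings and filters, leaving out each library, a replicate block, robust=FALSE, an adjusted p of 0.01 and glmTreat against 1.5-fold.

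Replicate numbers were not linked by any label to a common dish or date. Libraries of the same group correlated at 0.996 to 0.998 on log2(CPM + 1) across genes, which are not independent replicates, and each pair of libraries differed by more than sampling noise. Counting intervals were not used, and precision was taken from the spread between libraries.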

Additional observations from a re-analysis of the deposited data

How the results depend on the processing

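Scaling was the choice that mattered most. On library size alone, 8 members were called higher and 47 lower (8 and 17 Rbm, 0 and 10 Srsf, 0 and 20 Hnrnp, 8 and 50 core spliceosome, 3 and 17 SR kinase and SR-related, 4 and 32 other regulators), the members' median log2 fold change was -0.72 and the Rbm median -0.23. The log2 fold changes that were then reversed were -0.32 for Rbm15b, -0.079 for Rbm10, -0.39 for Rbm45, -0.035 for Rbm47, -0.61 for Rbm33, -0.26 for Rbm8a, -0.42 for Rbm4b, -0.32 for Rbm22, -0.023 for Rbm7, -0.23 for Rbm25, -0.32 for Rbm18, -0.48 for Rbm28, -0.074 for Rbm43, -0.73 for Rbm19, -0.021 for Rbm26, -0.72 for Rbm17, -0.014 for Rbm5, -0.92 for Srsf7, -0.88 for Srsf4, -0.72 for Srsf6, -0.59 for Srsf11, -0.21 for Hnrnpc, -0.75 for Hnrnpab, -0.87 for Hnrnpul1, -0.15 for Hnrnpu, -0.85 for Hnrnph2, -0.68 for Hnrnpul2, -0.74 for Hnrnpr, -0.56 for Hnrnpm and -0.76 for Hnrnpf. By construction this scaling moves all genes by nearly the same amount. Most of all tested genes were then called lower too, so these counts do not set the members as a whole apart. Upper-quartile scaling reversed Srsf7 to -0.10 (adjusted p = 0.0303, edgeR) and Hnrnph2 to -0.027, called 4 Hnrnp genes higher and 5 SR kinase and SR-related genes lower, and gave a median of 0.094. The members' median was 0.23 with DESeq2, 0.26 with RLE scaling, 0.17 without a count filter and 0.25 with at least 1 CPM in 3 libraries. The SR kinase and SR-related genes called lower were 5 without the filter and 1 with the stricter one. A glmTreat test against 1.5-fold, which asks for a larger change, called 19 members higher and 9 lower (17 and 2 Rbm, 0 and 3 Srsf, 2 and 4 Hnrnp), 16 and 4 core spliceosome genes, 9 and 2 SR kinase and SR-related genes and 11 and 7 other regulators. Over all tested genes the glmTreat test likewise called more genes higher than lower. The share called higher was larger for the members and for Rbm genes than for all tested genes. For Srsf and Hnrnp genes it was smaller. The share called lower was smaller for the members and for Rbm genes than for all tested genes. It was larger for Srsf genes and nearly the same for Hnrnp genes. Leaving out each library in turn gave medians of 0.23 to 0.25, with 36 to 38 members higher and 19 to 20 lower. Deviations of same-numbered libraries correlated weakly (0.0879, -0.00157 and 0.082), and the own number was the best match for 2 of 3 induced libraries. With so few libraries this does not settle whether the numbers pair them. With a replicate block, 38 members were called higher and 20 lower and the median was 0.24. The call on Hnrnpk was lost with RLE scaling and that on Hnrnph2 with DESeq2, while Hnrnpul1 was called higher under the block (adjusted p = 0.0277), and the cause was not tested.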
